A study of Homo sapiens with 14 samples.

Results

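GLTSCR1 and the SS18::SSX fusion protein were compared on the chromatin of vehicle-treated HS-SY-II cells, a human synovial sarcoma cell line. The comparison took every region of 2 chromatin immunoprecipitation (ChIP-seq) peak lists, 18037 regions for GLTSCR1 and 24953 for the fusion, 42990 of the 183499 regions in the 9 peak lists of the series. One library came from an antibody to GLTSCR1 and the other from an anti-HA antibody against the tagged fusion. Both came from cells given DMSO, the vehicle of the BRD9 degrader WA-68, which the other groups of the series received at 100 nM for 12, 24, 48 or 96 h. No time is given in the labels for DMSO, and they call the genotype of both libraries WT although the fusion carried an HA tag; how the tag was introduced is not given in the sources used here. A region counted as shared when it overlapped a region of the other list by at least 1 bp on chromosomes 1 to 22, X and Y, and otherwise as GLTSCR1-only or fusion-only.

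GLTSCR1, the product of BICRA, is a subunit of GBAF (also called non-canonical BAF), a form of the BAF chromatin remodelling complex that contains BRD9 and SS18 and is found mainly at promoters and at sites of the insulator protein CTCF. SS18::SSX, the oncoprotein that defines synovial sarcoma, joins the SS18 subunit to the tail of an SSX protein. Its SS18 part enters canonical BAF and GBAF alike, and the SSX tail binds nucleosomes that carry the ubiquitin mark placed on histone H2A by Polycomb complexes.

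There was 1 library a side, so the proteins were compared without a test or p-value. The intervals below are 95% intervals that cover counting error only, and neighbouring regions are not independent. The lists came from different antibodies, so a difference between the proteins cannot be told apart from a difference in how well each antibody enriched its target. Read depth is unknown from peak lists, and a site without a call (the lowest −log10 q was 3 in each list) may still have held the protein at a lower level. Each library pools many cells, so more cells with a protein at a site and more protein per cell cannot be told apart, and a shared region need not hold both proteins in 1 cell.

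The promoters of 6 genes are printed here as examples of the classes at promoter windows, and they need not be typical of them. Each is the 250 bases before the start site, from RefSeq on GRCh38.p14, 5′ to 3′ on the gene's own strand. HNRNPF, which encodes an RNA-binding protein, and TOMM70, which encodes a receptor of the mitochondrial import machinery, had GLTSCR1 without the fusion. ZIC2, a zinc-finger transcription factor gene, and TLE1, a corepressor gene used as a marker of synovial sarcoma, had both proteins. FOXD3 and IRX2, developmental transcription factor genes, had the fusion without GLTSCR1 at the promoter window. In the first pair the capitals mark the ETS core CCGGAAG on either strand, and in the other 4 they mark the GC box GGGCGG on either strand. These 6 were chosen after their values were seen.
HNRNPF: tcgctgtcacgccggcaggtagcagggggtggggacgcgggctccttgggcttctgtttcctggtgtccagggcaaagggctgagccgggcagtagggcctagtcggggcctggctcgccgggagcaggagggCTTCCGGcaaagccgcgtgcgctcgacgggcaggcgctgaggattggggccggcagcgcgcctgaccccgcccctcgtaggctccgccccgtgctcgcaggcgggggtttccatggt
TOMM70: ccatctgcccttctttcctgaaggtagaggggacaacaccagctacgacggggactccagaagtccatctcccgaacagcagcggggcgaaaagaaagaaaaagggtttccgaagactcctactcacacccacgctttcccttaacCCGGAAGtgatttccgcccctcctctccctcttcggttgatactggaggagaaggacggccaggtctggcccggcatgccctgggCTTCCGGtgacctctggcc
ZIC2: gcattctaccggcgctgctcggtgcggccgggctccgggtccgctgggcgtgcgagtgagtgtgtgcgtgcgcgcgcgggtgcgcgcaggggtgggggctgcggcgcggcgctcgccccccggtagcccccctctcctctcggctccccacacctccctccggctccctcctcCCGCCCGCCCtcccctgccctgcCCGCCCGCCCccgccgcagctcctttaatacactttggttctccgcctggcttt
TLE1: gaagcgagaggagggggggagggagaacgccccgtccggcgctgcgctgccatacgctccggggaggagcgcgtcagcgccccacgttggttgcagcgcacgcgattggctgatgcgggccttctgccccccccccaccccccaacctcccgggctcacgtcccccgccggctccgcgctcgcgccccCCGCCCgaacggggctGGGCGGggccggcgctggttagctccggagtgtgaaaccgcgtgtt
FOXD3: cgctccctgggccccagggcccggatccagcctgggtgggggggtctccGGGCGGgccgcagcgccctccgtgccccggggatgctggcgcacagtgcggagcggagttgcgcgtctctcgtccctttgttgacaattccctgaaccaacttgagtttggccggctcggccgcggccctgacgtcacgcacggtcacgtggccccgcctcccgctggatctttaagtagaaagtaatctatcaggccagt
IRX2: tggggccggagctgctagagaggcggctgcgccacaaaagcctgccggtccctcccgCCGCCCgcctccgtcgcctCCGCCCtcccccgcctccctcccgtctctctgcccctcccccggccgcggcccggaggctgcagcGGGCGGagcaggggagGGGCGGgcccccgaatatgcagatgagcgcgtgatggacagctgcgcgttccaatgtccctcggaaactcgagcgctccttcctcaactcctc

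The HNRNPF window lies at chr10:43408858-43409107 on the minus strand. A GLTSCR1 region with a fold of 16.3 covered it, its highest summit was 86 bp downstream of the start, and 1 ETS core lay 117 bp before the start. Fold here is the authors' enrichment of a summit over local background, a linear ratio. It depends on the depth and background of its own library, so folds of the 2 lists are given side by side but never compared, and strength is given as a percentile rank within a list, where a higher rank is a stronger region.

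The TOMM70 window (chr3:100401090-100401339, minus strand) overlapped a GLTSCR1 region with a fold of 12.5 and held 2 ETS cores, 19 and 104 bp before the start. That region began at position 100401257, upstream of both cores, so neither core lay under it. Its highest summit was at −660 bp, upstream of the start. The ZIC2 window (chr13:99981534-99981783, plus strand) held 4 matches to the GC box and lay in a GLTSCR1 region with a fold of 9.01 and a fusion region of 14.9 kb with a fold of 14.9. The TLE1 window (chr9:81689548-81689797, minus strand) held 2 GC boxes. A fusion region with a fold of 4.73 covered it, a GLTSCR1 region with a fold of 5.78 began just inside the gene, and the highest summits of these 2 regions were 302 and 296 bp downstream of the start. A stronger GLTSCR1 region, with a fold of 7.64, lay upstream of the window. At ZIC2 the highest GLTSCR1 summit was at −1987 bp and the highest fusion summit at −7680 bp from the start, where a minus sign is upstream.

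The FOXD3 window (chr1:63322317-63322566, plus strand) held 1 GC box and was overlapped by a fusion region with a fold of 9.82, whose highest summit was at −366 bp. The IRX2 window (chr5:2751678-2751927, minus strand) held 4 GC boxes and lay in a fusion region with a fold of 12.6, whose highest summit was 2574 bp inside the gene. GLTSCR1 was called over neither window, but the IRX2 fusion region overlapped a GLTSCR1 region elsewhere, and a GLTSCR1 region lay in the IRX2 gene span.

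GLTSCR1 overlapped the fusion at most of its regions, while most fusion regions lay outside GLTSCR1. Of the GLTSCR1 regions, 10701 (59.3%, 58.6 to 60.0) were shared and 7336 (40.7%) were GLTSCR1-only. Of the fusion regions, 9024 (36.2%, 35.6 to 36.8) were shared and 15929 (63.8%) were fusion-only. Asking for the highest summits within 250 bp of each other in place of any overlap gave 22.6% of GLTSCR1 and 16.35% of fusion regions.

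In base pairs, GLTSCR1 covered 16.8 Mb and the fusion 33.9 Mb, with 9.26 Mb in common. That is 55.2% of the GLTSCR1 bases and 27.3% of the fusion bases. The overlap formed 11854 pairs of regions. In 50.6% of pairs the GLTSCR1 region lay wholly inside the fusion region, in 19.2% the fusion region lay wholly inside the GLTSCR1 region, and 30.2% overlapped in part. The fusion region was the wider one in 68.1% of pairs, with a median ratio of 2.08.

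Distances between summits were taken within shared regions, where the overlap and the number of summits already limit them, so they are given as a description. From the highest GLTSCR1 summit, the nearest fusion summit was a median of 151 bp away, within 100 bp for 34.6% of regions and within 250 bp for 71.8%. From the highest fusion summit, the nearest GLTSCR1 summit was a median of 161 bp away, and 66.7% were within 250 bp. The medians at gene ends, inside genes and between genes ran from 146 to 166 bp, so this spacing was much the same in all 3 places. Over the whole list of 18037 GLTSCR1 regions, 4080 had their highest summit within 250 bp of the highest summit of a fusion region. That count did not ask for an overlap of the regions.

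GLTSCR1-only regions lay far from the fusion, and fusion-only regions lay nearer to GLTSCR1. The median distance from a GLTSCR1-only region to the nearest fusion region was 58.6 kb, and 26.7% had one within 10 kb. From a fusion-only region to the nearest GLTSCR1 region the median was 8.16 kb, and 53.0% had one within 10 kb. Within 1 kb the shares were 13.3% and 14.2%.

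Gene ends separated the classes in opposite directions for the 2 proteins. A region was at a gene end when it overlapped the 1 kb on either side of either end of a protein-coding gene span, a window that takes in promoters and downstream ends. GLTSCR1-only regions were at gene ends in 52.3% of cases (51.2 to 53.5), against 23.7% (22.9 to 24.5) of shared GLTSCR1 regions. Fusion-only regions were at gene ends in 12.5% (1988 regions), against 29.3% (28.4 to 30.3) of shared fusion regions. Fusion-only regions were instead mostly inside genes (42.6%) or between them (44.9%).

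The difference in the gene-end share, shared minus unshared, was −28.7 percentage points for GLTSCR1 (−30.1 to −27.3) and 16.8 points for the fusion (15.8 to 17.9). Comparing regions of like strength decile and width gave −30.3 and 21.0 points, an alternative chosen after the data had been seen. Defining shared by highest summits within 250 bp reduced the GLTSCR1 difference to −9.51 points, and the fusion difference was then 12.9 points.

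**Figure D1:**
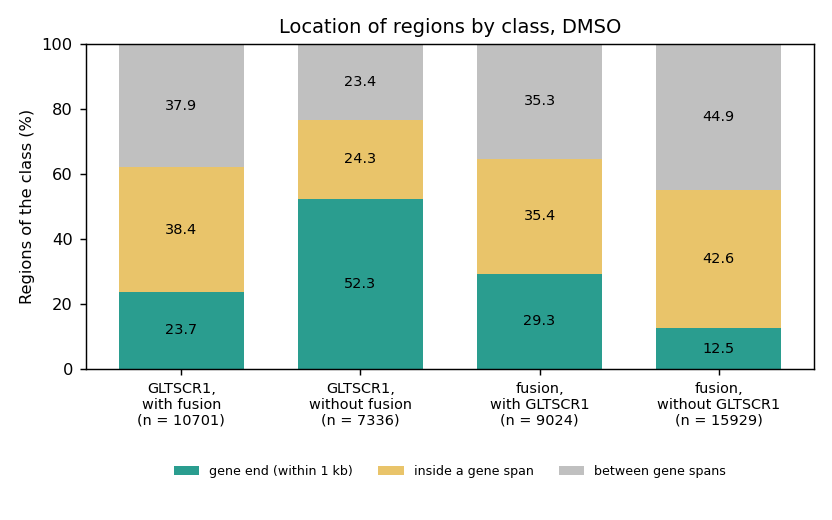
Stacked bars give the percentage of regions (vertical axis) at a gene end, inside a gene span or between gene spans for the 4 classes, with the number of regions under each bar. GLTSCR1-only regions had the largest gene-end share of the 4 classes, 52.3%, and fusion-only regions the smallest, 12.5%.

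Seen by place, 39.7% of the GLTSCR1 regions at gene ends were shared, against 69.8% inside genes and 70.3% between genes. For the fusion the order was the other way, with 57.1% shared at gene ends, 32.0% inside genes and 30.8% between genes. RefSeq start sites, which give a strand, showed the same directions. Of GLTSCR1 regions within 1 kb of a start 37.3% were shared, and of those at a gene end without such a start 50.8%. Of fusion regions these shares were 61.2% and 48.8%.

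At start sites the highest summit lay to either side of the start in all 4 classes. Its median distance from the start, over regions whose highest summit was within 1 kb, was 324.5 bp for shared and 292 bp for GLTSCR1-only regions. For shared and fusion-only fusion regions it was 304 bp and 394.5 bp. Within 250 bp of the start lay 38.1% and 40.8% of these GLTSCR1 summits and 42.4% and 32.3% of these fusion summits. The window of 1 kb bounds these distances, and 86.2% and 96.7% of GLTSCR1 and 81.7% and 83.6% of fusion regions at starts had their highest summit within it.

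Strength separated fusion regions more than GLTSCR1 regions. The median percentile rank was 64.9 for shared and 43.9 for fusion-only regions. For GLTSCR1 it was 51.5 for shared and 47.7 for GLTSCR1-only regions, a difference of 3.77 that became 11.3 with highest summits within 250 bp and 2.06 with lists of equal length. The shared part of the GLTSCR1 list moved little over the lower deciles of fold, from 60.3% in the weakest to 57.4% in the eighth, and reached 74.3% in the strongest. The shared part of the fusion list was 28.2% in the weakest decile, 31.5% in the seventh, 49.8% in the ninth and 76.3% in the strongest.

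The place of a region and its strength combined differently for the 2 proteins. At gene ends the shared part of the GLTSCR1 regions went from 22.6% in the weakest decile to 68.3% in the strongest. At gene ends the shared part of the fusion regions was already 58.9% in the weakest decile, fell to 50.4% in the fifth and was 80.4% in the strongest. The other places of the GLTSCR1 list changed little until the highest deciles.

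**Figure D2:**
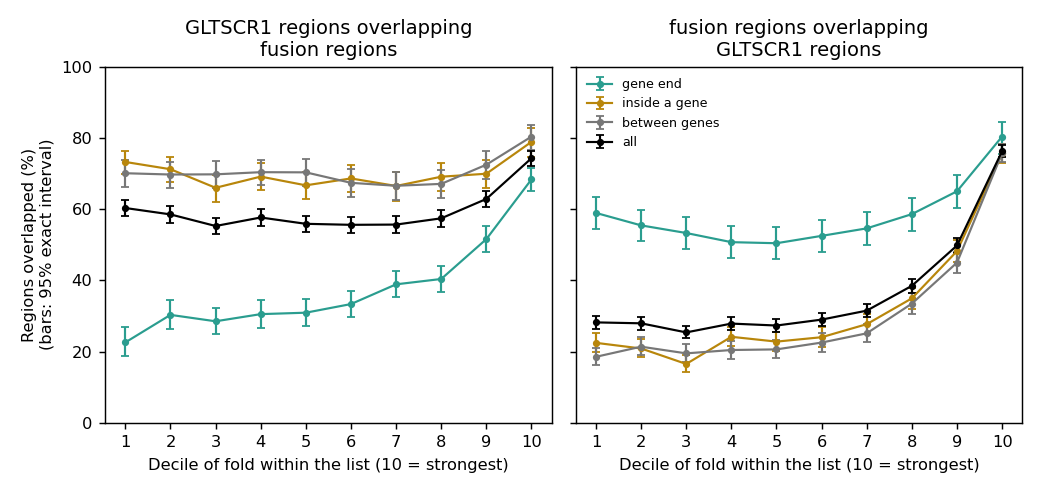
The percentage of regions that overlapped the other protein (vertical axis, bars are 95% exact intervals) is plotted against the decile of fold within the list (horizontal axis, 10 is strongest), for GLTSCR1 on the left and the fusion on the right, split by place. Weak GLTSCR1 regions at gene ends were seldom shared (22.6%) and weak fusion regions at gene ends often were (58.9%), and in the strongest decile all lines lay between 68.3% and 80.4%.

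Overlaps between the strongest regions of the 2 lists were a minority, but a strongest decile holds only 10.0% of its list. Of all shared regions, 21.1% in the fusion list and 12.5% in the GLTSCR1 list were in the strongest decile. Of the 1804 GLTSCR1 regions in the strongest decile, 304 (16.9%) overlapped a fusion region of the strongest fusion decile, 400 (22.2%) overlapped only fusion regions of decile 5 or lower, and 464 (25.7%) overlapped none. Of the 2496 fusion regions in the strongest decile, 299 (12.0%) overlapped a GLTSCR1 region of the strongest decile and 592 (23.7%) none. Over 5606 pairs in which each region had a single partner, the Spearman rank correlation of the percentile ranks was 0.014, and over all 11854 pairs, where a wide region enters more than once, it was −0.21. These values describe regions of 1 library each and carry no test.

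Shared regions were wider than unshared ones in both lists. The median width was 674 bp (quartiles 418 and 1273) for shared and 472 bp (346 and 724) for GLTSCR1-only regions. For the fusion it was 1150 bp (556 and 2847) for shared and 565 bp (391 and 969) for fusion-only regions. A wider region has more room for an overlap of 1 bp, so the share by width describes the lists and does not separate width from binding. Of regions up to 500 bp, 48.4% of GLTSCR1 and 22.04% of fusion regions were shared, and of those over 5 kb 96.0% and 89.7%.

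**Figure D3:**
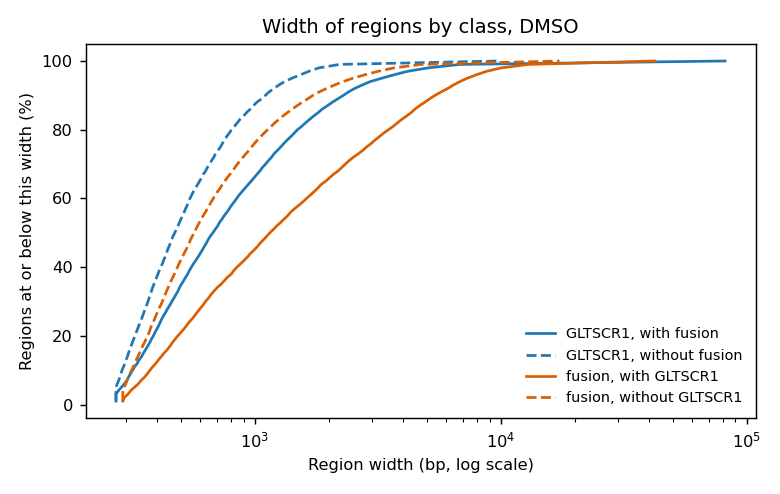
Cumulative curves give the percentage of regions (vertical axis) at or below a width in bp (horizontal axis, log scale) for the 4 classes. Shared fusion regions lie farthest to the right, with a median of 1150 bp, and GLTSCR1-only regions farthest to the left, with a median of 472 bp.

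Regions over 5 kb numbered 1172 in the fusion list and 227 in the GLTSCR1 list, and 1051 and 218 of them were shared. The widest GLTSCR1 region, chr3:147346960-147428632, covered 81.7 kb over the head-to-head transcription factor genes ZIC1 and ZIC4 and held 29 separate fusion regions. A GLTSCR1 region of 54.4 kb inside DNM3, a dynamin gene, and one of 51.3 kb at KERA, which encodes a corneal proteoglycan, held 19 fusion regions each. The widest fusion region, chr10:132773768-132816135, covered 42.4 kb from the end of INPP5A over NKX6-2 to CFAP46 and held 5 GLTSCR1 regions. In these domains the wide list was GLTSCR1 on chromosome 3 and the fusion on chromosome 10.

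Unshared wide regions were few. The GLTSCR1-only class had 9 over 5 kb, the widest being 9.73 kb inside DNM3, 6.70 kb at 186 kb from SEMA3A and 6.59 kb at 38.2 kb from DCN. The fusion-only class had 121, led by 17.3 kb inside MCF2L, a guanine nucleotide exchange factor gene, 15.96 kb at 49.0 kb from FCGR2A and 15.7 kb inside NFATC1.

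Away from gene ends, the strongest shared regions of the 2 lists were in different places. For GLTSCR1 they were chr17:80491680-80492866, 15.1 kb from NPTX1, with a fold of 57.4, and a pair inside DNM3 with folds of 40.4 and 39.8. The NPTX1 region overlapped a fusion region of rank 98.1 in its own list. For the fusion they were inside ADAP1 (chr7:934209-937999, fold 42.5), inside MCF2L (41.5) and 14.3 kb from FAM53A (34.7). The GLTSCR1 partner at ADAP1 had a rank of 26.3, at MCF2L 68.4 and at FAM53A 97.6.

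The strongest GLTSCR1-only region away from gene ends was chr14:75258056-75260154, 18.7 kb from the immediate early gene FOS, with a fold of 39.9 and a single summit. It was followed by chr3:120558441-120559414, 36.9 kb from NDUFB4, with a fold of 28.8, and by a region 350 kb from HAS2 with a fold of 27.4. The strongest fusion-only regions away from gene ends were chr10:129519512-129526856 inside the DNA repair gene MGMT (fold 20.4), chr10:503923-509414 inside DIP2C (20.2) and chr10:56265152-56271983, 85.2 kb from ZWINT (19.3). The GLTSCR1-only regions were 0.862 to 2.10 kb wide and the fusion-only regions 5.49 to 7.35 kb.

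Counted by gene, GLTSCR1 was at the ends of more genes than the fusion. Of 20037 protein-coding genes, 2591 (12.9%) had both proteins at their ends, 3643 (18.2%) had GLTSCR1 only, 1281 (6.39%) had the fusion only and 12522 (62.5%) had neither. GLTSCR1 was at 6234 genes (31.1%) in all and the fusion at 3872 (19.3%). These shares are the background for every list below. In genes with both, the strongest regions of the 2 proteins overlapped each other in 2091 (80.7%).

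Taking each gene's strongest region at its ends, GLTSCR1 ranked higher where the fusion was also called, and the fusion did not rank higher where GLTSCR1 was. Over all regions, by contrast, the median fusion rank was 64.9 for shared and 43.9 for fusion-only regions. The median rank of a gene's strongest GLTSCR1 region was 74.6 in genes with both and 55.5 in genes with GLTSCR1 only. The median rank of the strongest fusion region was 50.1 in genes with both and 50.4 in genes with the fusion only. Of GLTSCR1-only genes 223 (6.12%) had a fusion region in the gene span, and of fusion-only genes 291 (22.7%) had a GLTSCR1 region there. These shares are a description, since the like shares over all genes were not computed and gene lengths were not matched.

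Genes with both proteins at high ranks, ordered by the lower of the 2 ranks, were led by ZIC5, a zinc-finger transcription factor gene (GLTSCR1 fold 14.7, fusion fold 14.9). PDGFA, which encodes a platelet-derived growth factor chain, had folds of 14.1 and 11.9. HOXC4 had 22.6 and 11.7, and SIM1, a bHLH-PAS transcription factor gene, 12.3 and 12.7. TCF7L2, the nuclear effector of WNT signalling, had 12.1 and 13.02, HOXB4 12.1 and 11.2, the RNA-processing gene USB1 13.1 and 10.9, and the forkhead gene FOXP2 11.2 and 10.8. The 2 regions overlapped in 7 of these 8 genes; at ZIC5 they lay apart.

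Genes with GLTSCR1 only were led by MYADM (fold 35.8), a membrane protein gene. Its region overlapped a fusion region outside the windows. ECT2, an exchange factor gene of cytokinesis, followed with a fold of 30.7, the kinase gene MOK with 30.0, and the histone gene H2BC3 with 26.5. HSPA8, which encodes a constitutive heat shock protein, had 24.9, H2AC13 and H2BC13 shared a region with 24.6, the carbonic anhydrase gene CA14 had 22.8 and KLF2 had 21.0. The region at H2BC3 and the one at H2AC13 and H2BC13, 29.0 and 34.8 kb wide, also overlapped fusion regions outside the windows of these genes. The regions at ECT2, MOK, HSPA8, CA14 and KLF2 overlapped no fusion region at all.

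Genes with the fusion only were led by CFAP46, a cilia gene under the 42.4 kb region above (fold 18.4), and by BMP3 (17.8), a bone morphogenetic protein gene. FGF20, a fibroblast growth factor gene, had a fold of 16.2, KNDC1 and UTF1, under 1 region of 15.5 kb, 15.7, and BMP5 15.6. The remaining 3 were LOC124904333 (14.5), LOC112268384 (13.6) and RIOX2 (13.6), which encodes a histidine hydroxylase. In 7 of these 8 the fusion region overlapped GLTSCR1 outside the windows; RIOX2 was the exception. Over all genes this was rare: the strongest region was a shared one in 88 (6.87%) of fusion-only genes and 62 (1.70%) of GLTSCR1-only genes.

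**Figure D4:**
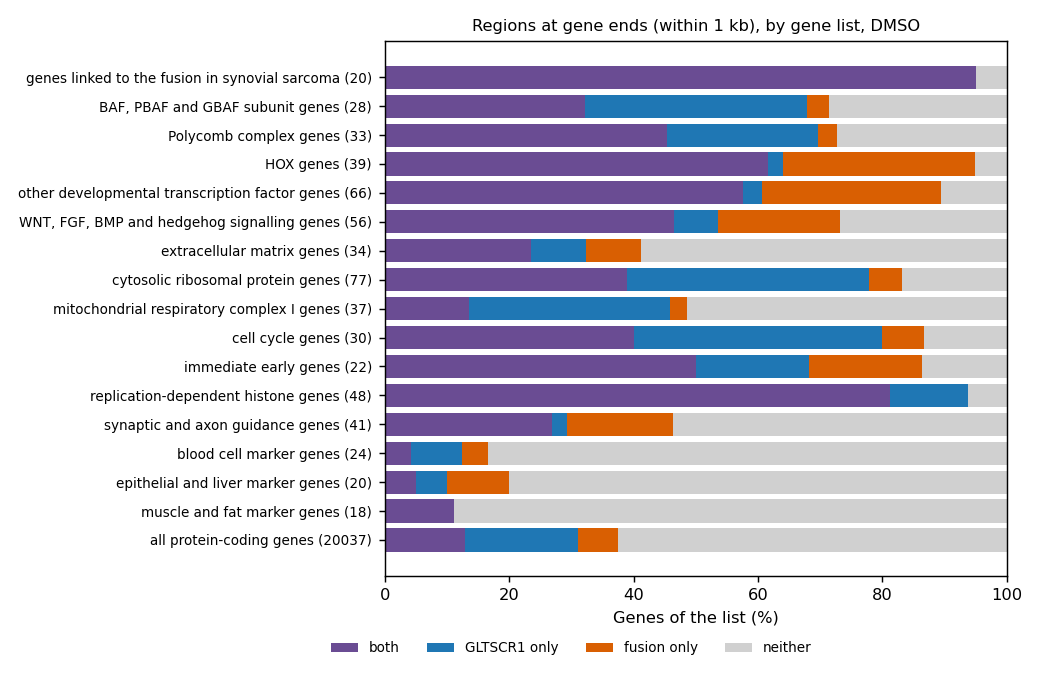
Each bar splits a gene list (vertical axis, number of genes in brackets) into the percentage of genes (horizontal axis) with both proteins, GLTSCR1 only, the fusion only or neither at their ends, with all protein-coding genes in the lowest bar. The fusion-only part is widest for HOX (12 of 39) and other developmental transcription factor genes (19 of 66), and the GLTSCR1-only part is widest for cell cycle (12 of 30) and ribosomal protein genes (30 of 77).

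Of 20 genes with known links to the fusion in this tumour, 19 had both proteins, against 12.9% of all genes, and SOX9, a cartilage transcription factor gene, had neither. Their median ranks were 88.3 for GLTSCR1 and 83.9 for the fusion, against 63.6 and 50.1 over all genes with each protein. UNCX, a homeobox gene, had folds of 9.24 and 11.4, and ZIC2 had 9.01 and 14.9. TLE1 had 7.64 and 4.73. This list was drawn up with earlier work on such targets in mind, so its count is a description.

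Genes of the remodelling complexes themselves had mostly GLTSCR1. Of 28 BAF, PBAF and GBAF subunit genes, 9 had both, 10 GLTSCR1 only, 1 the fusion only and 8 neither, with a median fusion rank of 39.6. BICRAL, which encodes the GLTSCR1 paralogue, had a GLTSCR1 fold of 14.5 (rank 98.3) and a fusion fold of 4.29 (rank 40.5). BRD9, the target of the degrader, had 4.41 (rank 35.4) and 2.81 (rank 1.35), so its fusion call was near the bottom of the list. BICRA, which encodes GLTSCR1, had neither protein at its ends or in its span, and the same held for SSX1 and SSX2.

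SS18 had a GLTSCR1 fold of 6.99 (rank 81.2) and a fusion fold of 5.90 (rank 74.6). ARID1A, a canonical BAF subunit gene, had 16.6 (rank 99.0) and 4.51 (rank 48.1). The subunit genes ARID1B (11.3), BCL7A (8.82) and DPF1 (7.61) had GLTSCR1 only. SMARCD2 (5.04) was the single one with the fusion only.

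Of 33 Polycomb complex genes, 15 had both, 8 GLTSCR1 only, 1 the fusion only and 9 neither. The GLTSCR1 regions ranked high, with a median of 86.9, and the fusion regions had a median of 52.7. CBX8 and RYBP, which encode subunits of Polycomb repressive complex 1, had GLTSCR1 folds of 11.7 and 10.4 and fusion folds of 7.87 and 7.06. At CBX8 the regions lay apart, and at RYBP they overlapped. The accessory gene MTF2 (10.4), the histone chaperone gene RBBP7 (6.69) and the demethylase gene KDM2B (6.12) had GLTSCR1 only. A fusion region lay elsewhere in the KDM2B gene span. PCGF3 (4.82) had the fusion only.

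HOX genes, which set position along the body axis, carried the fusion in 36 of 39 cases, and GLTSCR1 in 25. Both were at 24, the fusion alone at 12, GLTSCR1 alone at HOXB13 (8.20), and neither at 2. The clusters differed. All 9 HOXC genes and 8 of 10 HOXB genes had both, while 7 of 11 HOXA and 4 of 9 HOXD genes had the fusion alone.

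The median GLTSCR1 rank followed the same split, with 96.3 in HOXB and 94.0 in HOXC against 73.4 in HOXA and 73.2 in HOXD. These medians are over genes that rest on only 7, 6, 3 and 4 GLTSCR1 regions, in that order. The median fusion rank was 89.6 in HOXA, 90.6 in HOXB, 85.1 in HOXC and 88.8 in HOXD, so the fusion differed less between clusters. HOXB7 had folds of 14.5 and 10.3, from regions that lay apart. HOXA6 (10.1), HOXA5 (9.42), and HOXD10 and HOXD9 under 1 region (8.69) had the fusion only. Neighbouring HOX genes share regions: the 25 genes with GLTSCR1 rest on 20 regions and the 36 with the fusion on 31.

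Of 66 other developmental transcription factor genes, 38 had both, 19 the fusion only, 2 GLTSCR1 only and 7 neither. The median ranks were 82.8 for GLTSCR1 and 84.5 for the fusion. EBF3 had folds of 11.2 and 13.4 and FOXC1 15.4 and 9.74. IRX2 (12.6), FOXD3 (10.3) and LHX2 (8.84), genes of the iroquois, forkhead and LIM-homeobox families, had the fusion only. The fusion regions at IRX2 and LHX2 overlapped GLTSCR1 outside the windows, and that at FOXD3 did not. MSX1 (13.2) and NKX2-5 (4.76) had GLTSCR1 only, and the MSX1 region overlapped a fusion region outside the windows.

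Signalling genes followed the developmental factors. Of 56 WNT, FGF, BMP and hedgehog genes, 26 had both, 11 the fusion only, 4 GLTSCR1 only and 15 neither. Among ligands, FGF8 had folds of 12.9 and 8.86, and BMP3, BMP5 and WNT7B (9.22) had the fusion only. Among receptors, PTCH1, which binds hedgehog ligands, had 11.9 and 9.33, while the BMP receptor gene BMPR2 (14.1) and the WNT co-receptor gene LRP5 (6.39) had GLTSCR1 only. The other GLTSCR1-only members were WNT10A (5.17) and SMO (3.15). The WNT10A gene span held a fusion region, and the BMP3, BMP5 and WNT7B spans each held a GLTSCR1 region.

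Housekeeping lists had GLTSCR1 without the fusion at a larger share of genes than the 18.2% of all genes. It was 39.0% of ribosomal protein and 32.4% of complex I genes. Both proteins were at 39.0% of ribosomal protein and 13.5% of complex I genes, against 12.9% of all. Of 77 cytosolic ribosomal protein genes, 30 had both, 30 GLTSCR1 only, 4 the fusion only and 13 neither. The median rank was 73.2 over the 60 genes with GLTSCR1 and 41.1 over the 34 with the fusion. RPS12 had folds of 9.05 and 6.31 and RPS7 8.87 and 5.72. RPS23 (10.4), RPL21 (10.1) and RPS13 (9.36) had GLTSCR1 only, and RPL38 (4.93), RPLP2 (4.20), RPL12 (3.75) and RPS27 (3.57) the fusion only.

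Of 37 genes of mitochondrial complex I, which passes electrons from NADH into the respiratory chain, 5 had both, 12 GLTSCR1 only, 1 the fusion only and 19 neither. NDUFB6 (7.18), NDUFB1 (6.43) and NDUFS5 (5.62) led the GLTSCR1-only genes, and NDUFS7 (4.07) had the fusion only. The median ranks of 46.9 and 35.7 lay below those over all genes with each protein.

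Of 30 cell cycle genes, 12 had both, 12 GLTSCR1 only, 2 the fusion only and 4 neither. CDK6 and CCND2, which drive entry into the cycle, had both, with GLTSCR1 folds of 16.5 and 14.3 and fusion folds of 6.19 and 5.33. CDC25B (16.4), E2F3 (14.2) and CCNE1 (12.2) had GLTSCR1 only, and the CDC25B region overlapped a fusion region outside the windows. CDC25C (3.76) and the CDK inhibitor gene CDKN2B (2.73) had the fusion only. A GLTSCR1 region lay elsewhere in the CDC25C gene span. Of 22 immediate early genes, which respond to growth signals within minutes, 11 had both, 4 each of the 2 proteins alone and 3 neither; KLF2, EGR1 (7.89) and EGR3 (5.59) had GLTSCR1 only, and FOSL1 (7.47), EGR2 (6.43) and NR4A2 (5.39) the fusion only.

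Replication-dependent histone genes, which sit in clusters and are transcribed in S phase, had the widest gap between the median ranks of the 2 proteins among the lists. Of 48 such genes 39 had both, 6 GLTSCR1 only, none the fusion only and 3 neither. The median rank was 99.6 over the 45 genes with GLTSCR1 and 34.1 over the 39 with the fusion. H2BC8 lay in a GLTSCR1 region of 14.8 kb with a fold of 35.1, while its fusion region was 0.470 kb wide with a fold of 5.06. H3C1 and H4C1 shared folds of 19.9 and 7.18. The 45 genes with GLTSCR1 rest on 19 regions and the 39 with the fusion on 27.

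**Figure D5:**
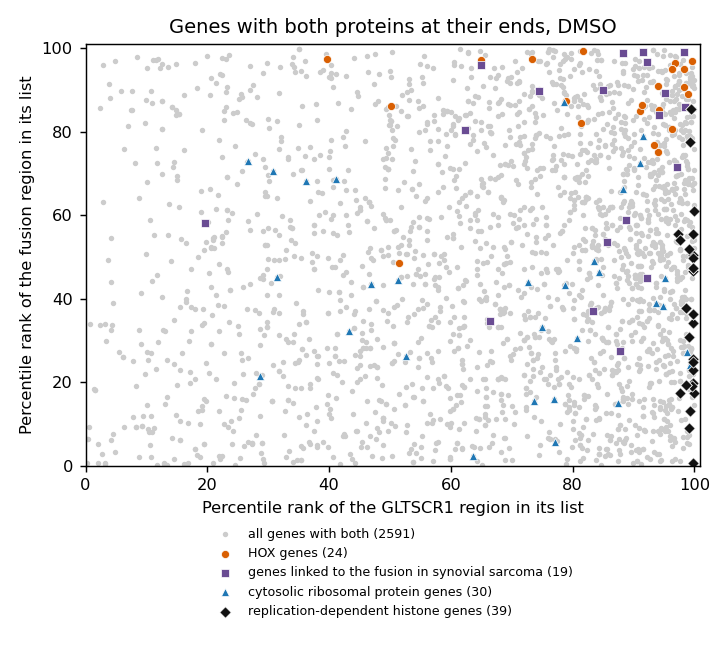
Each point is a gene with both proteins at its ends, placed by the percentile rank of its strongest GLTSCR1 region (horizontal axis) and of its strongest fusion region (vertical axis), with 4 lists marked. Histone genes with both stand at the right edge (GLTSCR1 ranks of 97.3 and above) over fusion ranks from 0.741 to 85.3, HOX genes mostly in the upper right and ribosomal protein genes mostly below them.

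Of 41 synaptic and axon guidance genes, 11 had both, 7 the fusion only, 1 GLTSCR1 only (UNC5C, 5.90) and 22 neither. A fusion region lay elsewhere in the UNC5C gene span. SEMA3C, a guidance ligand gene, had folds of 8.12 and 13.7, and the ephrin receptor gene EPHA3 had the fusion only with 12.3, in a region that overlapped GLTSCR1 outside the windows. Of 34 extracellular matrix genes, 8 had both, 3 each protein alone and 20 neither. COL1A1, a chain of type I collagen, had folds of 10.3 and 7.29. Singled out after their values were seen, the proteoglycan genes DCN and LUM had GLTSCR1 folds of 33.0 and 25.7 and fusion folds of 5.14 and 5.30. At DCN the regions lay apart, and at LUM they overlapped.

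Marker genes of other cell types seldom had either protein. Neither was at 20 of 24 blood cell, 16 of 20 epithelial and liver and 16 of 18 muscle and fat marker genes, against 62.5% of all genes. The 3 lists held 4 genes with both: CD8A, SFTPC, ACTA1 and CEBPA. Among these markers MUC2 had the highest fusion fold, 8.92, and CD68 the highest GLTSCR1 fold, 10.1. The CD68 region lay outside the gene span. Each of these regions overlapped the other protein outside the windows. Presence of a protein at a gene is not a measure of its expression.

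Promoters of the classes differed in how often they held the ETS core, and were alike in base content. Of 22078 RefSeq promoter windows of 300 bases, from 250 before to 50 after a start, 1669 (7.56%) were under both proteins, 3417 (15.5%) under GLTSCR1 only, 977 (4.43%) under the fusion only and 16015 (72.5%) under neither. The ETS core CCGGAAG, printed in capitals above for HNRNPF and TOMM70, was in 20.2% (18.8 to 21.5) of the GLTSCR1-only windows, 13.8% (12.2 to 15.5) of those under both and 8.70% (7.01 to 10.6) of the fusion-only windows, against 12.8% of all windows. The YY1 core GATGGCG was in 8.96%, 5.69% and 5.02%, against 5.23% of all, and the NRF1 core GCATGCG in 6.64%, 3.95% and 3.58%, against 4.60%.

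Base content was alike in the 3 occupied classes. Median GC was 65.7% under GLTSCR1 only, 67.3% under both and 67.7% under the fusion only, against 60.3% under neither, and the median number of CpG was 27, 28, 26 and 16. The GC box GGGCGG was in 71.2%, 71.9% and 73.6%, against 56.3% of all windows. The TATA motif TATAAA was in 4.95%, 8.03% and 7.37%, against 9.50%, and the E-box CAGCTG in 14.4%, 15.3% and 19.1%, against 18.0%.

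The remaining motifs differed less or were scarce. The cyclic AMP response core TGACGTC was in 5.77% of GLTSCR1-only windows, 5.57% of those under both and 4.09% of fusion-only windows, and CCAAT in 33.8%, 30.5% and 33.1%. The AP-1 motif TGANTCA was in 4.42%, 2.88% and 4.61%, against 6.16% of all, and the homeodomain core TAATTA in 1.73%, 2.10% and 2.46%, against 3.40%. All motifs were searched on both strands, and matches to different motifs may overlap. A match is a description of the sequence and no evidence that the factor was bound.

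The classes were also followed in the libraries that the comparison did not use, those from cells given WA-68 at 100 nM. A fusion region lay over 82.2%, 78.2% and 81.7% of the shared GLTSCR1 regions at 12, 24 and 48 h, and over 13.9%, 9.35% and 13.5% of the GLTSCR1-only regions. At least 1 of these 3 fusion lists covered 25.9% (24.9 to 26.9) of the GLTSCR1-only regions, and all 3 covered 2.36%. Shared regions thus had a fusion call in treated cells more often than GLTSCR1-only regions. These lists came from the HA tag that also defined the classes. Shared regions were wider (median 674 against 472 bp), which gives more room for an overlap, and width was not matched.

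A GLTSCR1 region lay over 65.6%, 61.1%, 60.2% and 63.5% of the shared fusion regions at 12, 24, 48 and 96 h, and over 6.64%, 7.88%, 7.07% and 8.71% of the fusion-only regions. Any of the first 3 lists covered 14.01% (13.5 to 14.6) of the fusion-only regions. Here too the later lists had the antibody target that defined the classes, and width was not matched. Treatment and library differ together here, so neither the calls that appeared nor those that went missing can be told apart from a difference between libraries.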

How the data were processed

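ChIP-seq peak lists of HS-SY-II cells were used, 1 per library; the main comparison took the GLTSCR1 and fusion lists from DMSO, and the 7 lists from WA-68 served for later calls only. Reads of the 5 inputs were not used here. Positions are on GRCh38 and the tools were MACS2, BWA, Picard, SAMtools, Trim Galore with cutadapt, bcl2fastq, deepTools and FastQC, per the submitters' processing notes. Their versions were not given in the sources used here. The deposited fold enrichment is a linear ratio of each summit over local background, by the authors' peak caller. The authors also deposited −log10 p and −log10 q values per summit, of which −log10 q served for an alternative threshold. Peaks were called per library, as peak names show in the deposited lists.

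The 32507 deposited GLTSCR1 rows and 59054 fusion rows were joined by coordinates into regions that carried their summit of highest fold; the 33 and 64 regions on other contigs were left out. Percentile ranks of fold were computed within a list. Shares carry exact Clopper-Pearson intervals and differences of shares Newcombe intervals. Gene spans (20037 protein-coding, without strand), 22078 promoter windows and the printed sequences came from RefSeq tables of GRCh38.p14; 15843 of the genes had a start with strand. All 593 listed genes matched. The region classes, the 16 gene lists, the 10 motifs and the alternatives were chosen with earlier results of these data known, and no gene list or motif was tested.

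The rule for named genes took, at gene ends, the 8 genes with the highest lower rank among those with both proteins, the 8 highest ranks in each single class, up to 3 members per list and class, and BRD9, BICRA, BICRAL, SS18, SSX1, SSX2 and TLE1. Genes that shared 1 region counted as 1. Away from gene ends it took the 3 strongest regions of each class, and in addition the 3 widest. Genes that complete a count of 5 or fewer are named too. A few genes that these rules name are left out of the text. The overlap and interval code was tested on simulated regions. Python 3.11.15, pandas 2.3.3, NumPy 2.4.6, SciPy 1.17.1 and matplotlib 3.10.9 were used.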

Additional observations from a re-analysis of the deposited data

How the results depend on the processing

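No alternative turned the direction of a difference or ratio between shared and unshared regions, while shares and gene counts have no direction to turn. Of 64 values recomputed, 32 stayed within their counting error (for gene counts, within 1.5 times) and 32 moved beyond it. The cause of these moves was not tested. Highest summits within 250 bp gave shares of 22.62% (GLTSCR1) and 16.35% (fusion), gene-end differences of −9.507 and 12.94 points, width ratios of shared over unshared regions of 1.223 and 1.496 (1.428 and 2.035 as reported) and rank differences of 11.31 and 15.83 (3.773 and 21.01). Overlap of 50% of the shorter region gave shares of 55.86% and 33.43% and, for the fusion, 15.48 points, a width ratio of 2.257 and a rank difference of 24.46. A −log10 q of at least 5 gave 54.82% of GLTSCR1 regions, −30.16 and 15.2 points and a GLTSCR1 width ratio of 1.489. The GLTSCR1 rank difference was then 2.69, with an interval of −0.0162 to 4.73 that spanned both signs. Lists of equal length gave 51.69% and 39.59%, −31.16 and 13.5 points, width ratios of 1.365 and 2.341 and a fusion rank difference of 24.54. Merging within 500 bp gave 58.32% and 41.47%, and start-site windows 15.71 points for the fusion. Matching on width gave −30.68 and 20.81 points, on strength 20.36 for the fusion, and on both −30.25 and 21.05; matching was chosen after seeing the data. No paired analysis was possible because each group held 1 library and the labels give no replicate numbers. Depth is unknown, so how many unshared regions fell just under the other list's threshold was not tested.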

Other observations

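The shared part of each list also varied by chromosome. Of GLTSCR1 regions the lowest shares were on chromosomes X (44.8% of 496 regions) and 19 (45.9% of 647), and the highest on chromosome 7 (70.0% of 1292). Of fusion regions the lowest share was on chromosome 22 (27.9% of 456) and the highest were on chromosomes 12 and 17 (both 42.7%). Chromosome X stood low for GLTSCR1 and high for the fusion (42.3% of 508). Gene density differs between chromosomes, and its part in these shares was not tested.

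GLTSCR1 regions of DMSO cells were called again in GLTSCR1 lists from WA-68 at rates that differed between the classes. This held for 57.6% of the shared and 53.3% of the GLTSCR1-only regions at 12 h, for 55.1% and 36.7% at 24 h, for 55.4% and 25.3% at 48 h and for 58.8% and 33.6% at 96 h. The fusion-only regions were called again by the fusion in 70.5%, 61.2% and 65.5% of cases at 12, 24 and 48 h, and the shared fusion regions in 75.5%, 70.8% and 74.6%. Shared regions were wider, and their width was not matched here.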
